A study of Mus musculus with 18 samples.

Results

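The *Clk* kinase genes and 4 further genes grouped with them for their detained introns, *Ogt*, *Nxf1*, *Mat2a* and *Gabbr1*, were followed in nuclear and whole cell RNA of Neuro2A cells. The members were the loci whose listed symbols hold 1 of these 8 names. Each name was found in 1 locus, so that there were 8 loci of 52179 with a symbol, and all 8 were among the 15579 loci that passed the filter, a mean of 10 or more normalized counts. Neuro2A (N2A) is a mouse neuroblastoma line, labelled wild type. The 18 samples formed 6 groups of 3: nuclear (Nuc) and whole cell (Whole) lysates of untransfected cells (control), of cells given a biotin-tagged scrambled mimic (Scr) and of cells given a biotin-tagged *miR-92b* mimic (92b), both mimics at 25 nM. In the pulldown, streptavidin-coated beads collect RNA held by a tagged mimic, and the libraries were then made from RNA selected with oligo-dT beads. The sources used here do not state whether control lysates were put on the beads. Nothing in the labels says that the 3 samples of a group are separate cultures, so p-values measure the spread between these samples, which may be technical. A whole cell lysate also holds the nuclei.

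A detained intron is left in a transcript that is otherwise spliced and polyadenylated, and such a transcript stays in the nucleus, where it is spliced later or degraded. This separates it from an intron that marks an exported transcript for decay. The CLK proteins are kinases that phosphorylate SR proteins, the arginine- and serine-rich splicing factors, and the transcripts of *Clk1* and *Clk4* are textbook cases of detained introns that respond to the activity of their own products. *Ogt* encodes the O-GlcNAc transferase and *Mat2a* the enzyme that makes S-adenosylmethionine in most tissues, and splicing of both is known to follow the supply of their product. *Nxf1* encodes the main mRNA export receptor, and *Gabbr1* a subunit of the GABA-B receptor.

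In the gene annotation (GENCODE release M21, GRCm38), each of the 8 genes has at least 3 transcripts of the class retained intron. *Clk1* and *Clk4* have 7 each, *Clk2*, *Clk3* and *Gabbr1* have 4 each, and *Ogt*, *Nxf1* and *Mat2a* have 3 each. Among 10590 tested loci of 1 coding gene, 58.2% have at least 1 such transcript and 21.8% have at least 3. In all 4 *Clk* genes, intron 3 and intron 4 are each spanned by at least 1 retained intron transcript, with introns numbered along the principal (APPRIS) coding transcript. The deposited values sum spliced and unspliced transcripts of a locus, and the 5′ ends of these introns are shown because they are the ones the 4 kinase genes share. Each line holds the last 3 bases of the exon in lower case and the first 6 bases of the intron in capitals. Intron 4 lies at chr1:58419734-58420120 in *Clk1* (minus strand), chr3:89169703-89170048 in *Clk2* (plus), chr9:57758351-57758626 in *Clk3* (minus) and chr11:51273169-51273559 in *Clk4* (plus).
Clk1 intron 4: gatGTATAG
Clk4 intron 4: gatGTATAG
Clk2 intron 4: gatGTACAA
Clk3 intron 4: gatGTACAG
Intron 3 lies at chr1:58420212-58421082 in *Clk1*, chr3:89168924-89169617 in *Clk2*, chr9:57758724-57760823 in *Clk3* and chr11:51272023-51273077 in *Clk4*.
Clk1 intron 3: gggGTATGA
Clk4 intron 3: tcgGTATGA
Clk2 intron 3: tcaGTGAGT
Clk3 intron 3: tcgGTGAGT

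The 9 bases at intron 4 were identical in *Clk1* and *Clk4*, and of 8621 annotated retained introns these 2 were the only ones with them. The 6 intron bases GTATAG stood at 0.174% of the 8621 introns, and GTATGA, at intron 3 of the same genes, at 0.858%. For comparison GTGAGT, at intron 3 of *Clk2* and *Clk3*, stood at 14.6%. GTACAA (*Clk2* intron 4) and GTACAG (*Clk3* intron 4) stood at 0.209% and 0.766%. Further introns of these genes were spanned by a retained intron transcript. Intron 6 of *Clk1* and introns 7 and 8 of *Clk4* each began with GTAAGT, at 9.33% of the 8621 introns. Intron 11 of *Clk2* began with GTGACT, at 0.464%. Rare 5′ ends were therefore not a trait of all annotated retained introns of *Clk1* and *Clk4*. The last 20 bases of intron 4 (capitals) and the first 3 of the next exon (lower case) are given for the same 4 genes.
Clk1 intron 4: TAATTATTCCTCTTTTTTAGatg
Clk4 intron 4: CTTTCTCTCCCTTACTTTAGatg
Clk2 intron 4: CCTACTTTCTTTCGTTTCAGatg
Clk3 intron 4: CAGCTTCTTCTTTCTCACAGatg
Only introns of the principal coding transcript that lie wholly inside an exon of a retained intron transcript were counted. By this rule the other 4 genes have 1 intron each, intron 1 of *Ogt* (chrX:101640111-101640217), intron 12 of *Nxf1* (chr19:8767149-8767227), intron 2 of *Mat2a* (chr6:72437118-72437370) and intron 21 of *Gabbr1* (chr17:37071982-37072143).
Ogt intron 1: gagGTAGAT
Nxf1 intron 12: aagGTCAGA
Mat2a intron 2: gtgGTAGGT
Gabbr1 intron 21: aagGTGAGG
The annotation says which introns have been seen in transcripts of any tissue. Which introns are detained in Neuro2A cells, whether those shown or others of these genes, was not measured.

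The pulldown used *miR-92b*, whose mature 3p arm is shown with its seed, bases 2 to 8, in capitals (RefSeq, chr3:89227126-89227147, minus strand, GRCm38.p6). The labels do not say which arm the mimic carried.
mmu-miR-92b-3p: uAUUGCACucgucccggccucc
A match of 7 or 8 bases to this seed (GTGCAAT on the transcript strand, or the window shifted by 1 base, TGCAATA, which overlaps it) was present in the annotated 3′ UTR of 2 of the 8 genes and of 2670 of 21842 coding genes (12.2%). *Clk3* held 1 at bases 798 to 804 of its 3′ UTR and *Clk4* held 1 at bases 180 to 186, with the match in capitals.
Clk3: gatgaacaGTGCAATgtgaaggaa
Clk4: ataatgaaTGCAATAcaagagtta
A match is a description of the sequence and not a measured site.

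Loci with a symbol held 3752991 to 22920038 reads in a sample. The fractions differed as their names say: 4 of the 6 tested loci of a list of nuclear RNAs were higher in nuclear samples, among them *Malat1* by 1.08 (SE 0.16, adjusted p = 1.82e-05) and *Neat1*, joined with *Gm27702*, by 1.06 (SE 0.14, adjusted p = 4.50e-06) on the log2 scale, and 10 of 10 cytoplasmic mRNAs were lower, among them *Rplp0* with a difference of -3.67 and *Eef1a1*, joined with *Gm26377*, with -3.53. The neuroblast transcription factor genes *Phox2a* and *Hand2* had reads in all 18 samples, whereas the neurofilament gene *Nefl* had none. The summed level of the markers of astrocytes, oligodendrocytes, microglia, endothelium and fibroblasts was at most 239 normalized counts per list and sample. The cytoplasmic list set 3 samples apart. Its summed level was 23107 and 27313 normalized counts in nuclear Scr samples 2 and 3 against 8378 to 14384 in the other 7 nuclear samples, and 225670 in whole cell *miR-92b* sample 3 against 58561 to 126705 in the other 8 whole cell samples. The same whole cell sample had the lowest summed level of the nuclear list, 39904 against 70022 to 102858. Its part in the results was not tested beyond the values given without it.

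The main question was whether the 8 genes were higher in nuclear than in whole cell samples. Those with Scr and *miR-92b* hold RNA from the pulldown, so a mean over the 3 treatments is not a level in the compartment alone. Averaged over the 3 treatments, 5 of the 8 were higher in nuclear samples, *Clk1*, *Clk4*, *Ogt*, *Nxf1* and *Mat2a*, by 1.39-fold to 1.65-fold, and none was lower. Of all 15579 tested loci, 15.3% were called higher. Among the 5847 loci with a mean of 200 or more normalized counts, as all 8 genes have, 25.4% were. The difference in *Clk2*, *Clk3* and *Gabbr1* did not pass the threshold. The test was limma, 1 fit over the 6 groups on log2 of the normalized count with a pseudocount of 1, with adjusted p-values over the 15579 loci and a threshold of 0.05. All fold changes are on that log2 scale, on which the median of the 8 genes was 0.50, that of all tested loci 0.14 and that of the loci with a mean of at least 200 0.02. A normalized count is relative to the other RNA of its sample, so the cytoplasmic mRNAs that were low in nuclear samples enter it. In bulk samples, a change in the RNA of each cell and a change in the number of cells that hold it cannot be told apart.

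**Figure D1:**
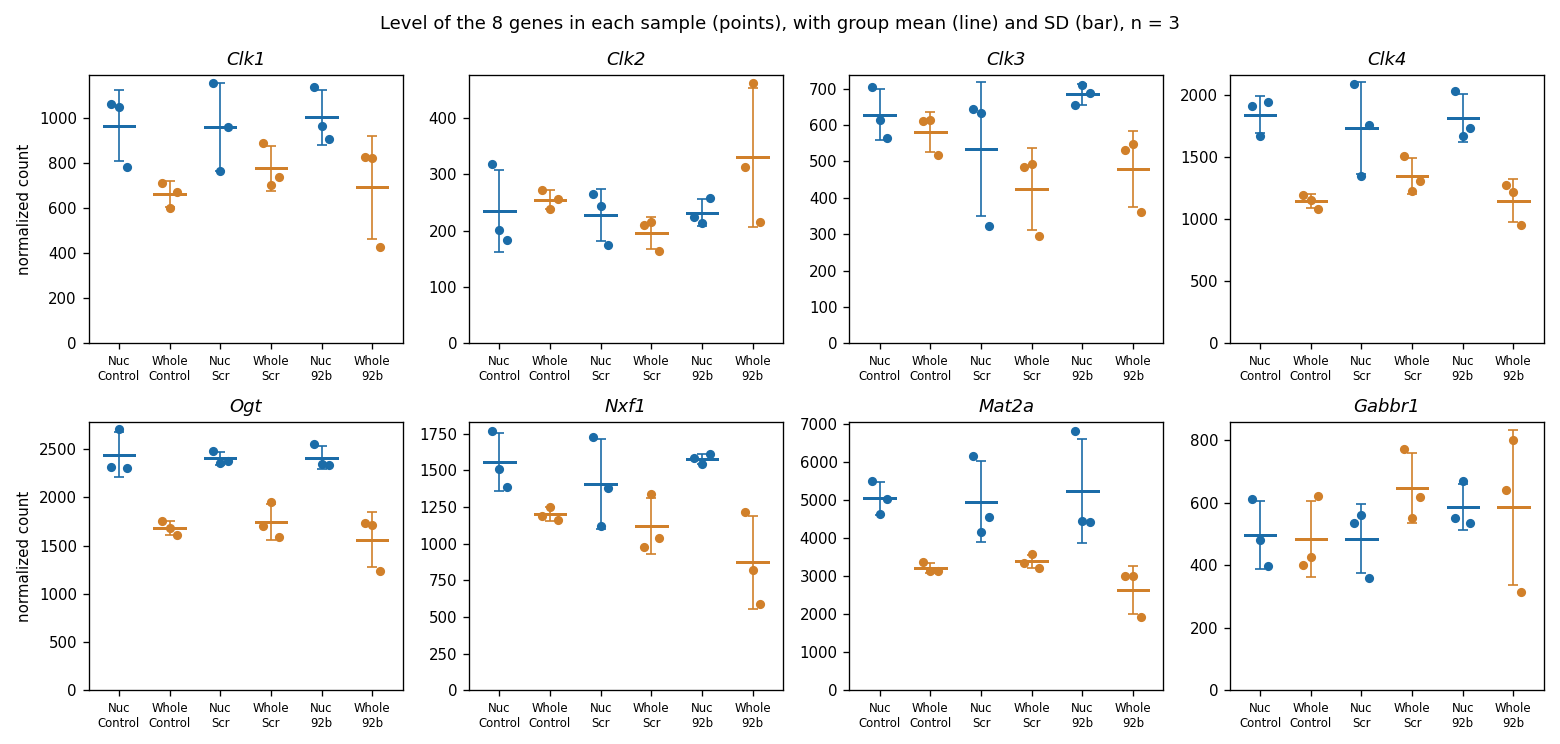
Normalized counts (y axis, from 0) of the 8 genes in each of the 18 samples, by group (x axis), with nuclear samples in blue and whole cell samples in orange. Points are samples, lines are group means and bars are SDs of 3 samples. All 9 nuclear samples lie above all 9 whole cell samples for Ogt and Mat2a, while the compartments overlap for the other 6 genes.

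The locus of *Clk1* (XLOC_006707) lies at chr1:58410173-58424160 (GRCm38, as for the other loci). The span given for each member is that of its locus in the deposited data, which can extend past the annotated gene. For *Clk1*, the nuclear normalized counts were 1060.0, 1047 and 782 in control, 1153, 764 and 957 with Scr and 1138, 962 and 904 with *miR-92b*. Whole cell samples held 713, 598 and 670.4 in control, 887, 702 and 736 with Scr and 826, 821 and 425 with *miR-92b*. The nuclear samples were higher in 75 of the 81 pairs of a nuclear and a whole cell sample, and the lowest value was that of whole cell *miR-92b* sample 3. The level of *Clk1* was 1.39-fold higher in nuclear samples (log2 difference 0.47, SE 0.13, 95% confidence interval 0.20 to 0.75, adjusted p = 0.00927). By treatment the log2 fold change was 0.53 in control (adjusted p = 0.162), 0.29 with Scr (0.485) and 0.59 with *miR-92b* (0.0927). No single treatment passed the threshold, although all 3 nuclear samples lay above all 3 whole cell samples in control and with *miR-92b*. *Clk1* passed in control in 4 of 32 alternatives, with sample weights, with the compared groups alone, without whole cell *miR-92b* sample 3 and without the 3 samples that stood apart. With *miR-92b* it passed without whole cell sample 1 (0.75, adjusted p = 0.0398) or 2 (0.75, adjusted p = 0.0414) of that treatment, and stood at 0.27 without sample 3 (adjusted p = 0.507). Without whole cell *miR-92b* sample 3 the mean difference was 0.37 (adjusted p = 0.0105). In FPKM, which divides by transcript length, the call was lost, with a log2 fold change of 0.15 (adjusted p = 0.525).

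*Clk4* is the closest relative of *Clk1*. *Clk4* (XLOC_020499) lies at chr11:51253651-51284792. For *Clk4*, the nuclear normalized counts were 1916, 1671 and 1946 in control, 2092, 1348 and 1763 with Scr and 2034, 1673 and 1737 with *miR-92b*. The whole cell values were 1198, 1153 and 1087 in control, 1511, 1226 and 1308 with Scr and 1275, 1219 and 954 with *miR-92b*. Nuclear samples were higher in 80 of 81 pairs, and the exception was nuclear Scr sample 2 against whole cell Scr sample 1. The level was 1.48-fold higher in nuclear samples (log2 difference 0.56, SE 0.10, 95% confidence interval 0.35 to 0.78, adjusted p = 1.97e-04). Within treatments it was 0.68 in control (adjusted p = 0.015), 0.35 with Scr (0.26) and 0.66 with *miR-92b* (0.0151), which passed the threshold in control and with *miR-92b*. The call with *miR-92b* was lost without nuclear *miR-92b* sample 1 or without whole cell *miR-92b* sample 3, where the value was 0.54 (adjusted p = 0.0613). In FPKM the mean difference was 0.44 and did not pass (adjusted p = 0.155). The locus is joined with that of *Gm25082*, of the class misc_RNA, so the values hold both, and *BC049762* of the same region has a locus of its own.

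*Clk2* (XLOC_096198) lies at chr3:89164795-89177317. For *Clk2*, the nuclear normalized counts were 318, 202 and 184 in control, 265, 243 and 175 with Scr and 224, 213 and 258 with *miR-92b*. Those of whole cell samples were 272, 238 and 256 in control, 210.4, 215 and 164 with Scr and 313, 461 and 215 with *miR-92b*. The highest value, 461, was that of whole cell *miR-92b* sample 2, nuclear samples were higher in 34 of 81 pairs, and the compartments overlapped in every treatment. The log2 fold change of *Clk2*, the member with the lowest normalized counts, was -0.13 (SE 0.18, 95% confidence interval -0.50 to 0.24, adjusted p = 0.597). By treatment its value was -0.16 in control, 0.20 with Scr and -0.44 with *miR-92b*, each with an adjusted p of at least 0.363. The interval of the mean difference holds changes in both directions.

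*Clk3* (XLOC_157060) lies at chr9:57708540-57765867. For *Clk3*, the nuclear normalized counts were 703, 614 and 565 in control, 644, 634 and 323 with Scr and 654, 711 and 687 with *miR-92b*. Whole cell *Clk3* stood at 610.3, 613 and 517 in control, 485, 493 and 294 with Scr and 531, 547 and 360.1 with *miR-92b*. Nuclear Scr sample 3 and whole cell Scr sample 3 were both low, and with *miR-92b* all 3 nuclear samples lay above all 3 whole cell samples. The log2 fold change of *Clk3* was 0.32 (SE 0.15, 95% confidence interval 0.01 to 0.63, adjusted p = 0.111). The call depended on the scaling: *Clk3* passed with samples rescaled to the same median (0.40, adjusted p = 0.0494), with quantile normalization (0.42, adjusted p = 0.0357) and without nuclear Scr sample 3 (0.43, adjusted p = 0.0185), whereas in FPKM the value was -0.06 (adjusted p = 0.846). Its region overlaps that of *Edc3*, which has a locus of its own with separate values.

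*Ogt* (XLOC_161303) lies at chrX:101640060-101684351. For *Ogt*, the nuclear normalized counts were 2313, 2712 and 2307 in control, 2483, 2357 and 2379.6 with Scr and 2551, 2349.6 and 2337 with *miR-92b*. In whole cell RNA they were 1757, 1681 and 1613 in control, 1705, 1951 and 1587 with Scr and 1732, 1716 and 1233 with *miR-92b*. The lowest nuclear value, 2307, was above the highest whole cell value, 1951. *Ogt* was 1.46-fold higher in nuclear samples (log2 difference 0.55, SE 0.09, 95% confidence interval 0.36 to 0.74, adjusted p = 8.85e-05), and its spread was the smallest of the 8 genes, with a coefficient of variation of 5.62% over the 9 nuclear samples. By treatment the difference was 0.53 in control (adjusted p = 0.0353), 0.47 with Scr (0.0884) and 0.64 with *miR-92b* (0.00945). It passed in each of the 31 alternatives that kept the adjusted p alone as the rule, FPKM included, where it was 0.50 (adjusted p = 0.00561).

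The locus of *Mat2a* (XLOC_128190) lies at chr6:72414308-72440610, and the annotated gene at chr6:72432799-72439558. For *Mat2a*, the nuclear normalized counts were 5485, 4618 and 5033 in control, 6154, 4156 and 4536 with Scr and 6807, 4444 and 4428 with *miR-92b*. Whole cell *Mat2a* was at 3359.7, 3129 and 3131 in control, 3347, 3575 and 3220.3 with Scr and 3010.0, 2996 and 1909 with *miR-92b*. The lowest nuclear value, 4156, was above the highest whole cell value, 3575. *Mat2a* had the largest difference of the 8 genes, 1.65-fold, or a log2 fold change of 0.72 (SE 0.12, 95% confidence interval 0.48 to 0.96, adjusted p = 4.60e-05). By treatment this was 0.65 in control (adjusted p = 0.0402), 0.53 with Scr (0.119) and 0.99 with *miR-92b* (0.00202). The low value of whole cell *miR-92b* sample 3 entered the last of these, which was 0.77 without that sample (adjusted p = 0.00655). The region holds loci of *Ggcx* and *Particl* as well, each with values of its own. Of all 15579 loci, 454 (2.91%) had all 9 nuclear samples above all 9 whole cell samples, and *Ogt* and *Mat2a* were 2 of them.

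*Nxf1* (XLOC_078076) lies at chr19:8756210-8786417. For *Nxf1*, the nuclear normalized counts were 1772, 1509.9 and 1384 in control, 1726, 1119 and 1377 with Scr and 1582, 1543 and 1614 with *miR-92b*. The counts of whole cell samples were 1188, 1252 and 1163 in control, 980.2, 1341 and 1039 with Scr and 1215, 818 and 588 with *miR-92b*. Nuclear samples were higher in 76 of 81 pairs, and the lowest nuclear value was that of Scr sample 2. *Nxf1* was 1.45-fold higher in nuclear samples (log2 difference 0.53, SE 0.12, 95% confidence interval 0.28 to 0.79, adjusted p = 0.00213). By treatment the value was 0.37 in control (adjusted p = 0.339), 0.32 with Scr (0.407) and 0.92 with *miR-92b* (0.00623), and it passed with *miR-92b* alone of the 3. Without whole cell *miR-92b* sample 3 this last value was 0.66 (adjusted p = 0.0385). *Taf6l* of the same region has a locus of its own. In FPKM the mean difference was 0.39 (adjusted p = 0.0331).

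*Gabbr1* (XLOC_066443) lies at chr17:37045966-37078143. For *Gabbr1*, the nuclear normalized counts were 612, 480.0 and 399 in control, 535, 562 and 358 with Scr and 550.4, 669 and 535 with *miR-92b*. Whole cell *Gabbr1* measured 401, 426 and 623 in control, 772, 551 and 618 with Scr and 641, 801 and 314 with *miR-92b*. The values overlapped in every treatment, and nuclear samples were higher in 29 of 81 pairs. The log2 fold change of *Gabbr1* was -0.10 (SE 0.17, 95% confidence interval -0.44 to 0.25, adjusted p = 0.694), and the sign turned in FPKM (0.26, adjusted p = 0.642) and with quantile normalization (0.02, adjusted p = 0.937). The value with *miR-92b*, 0.10, turned to -0.30 without whole cell *miR-92b* sample 3, the sample with the lowest level of *Gabbr1*.

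**Figure D2:**
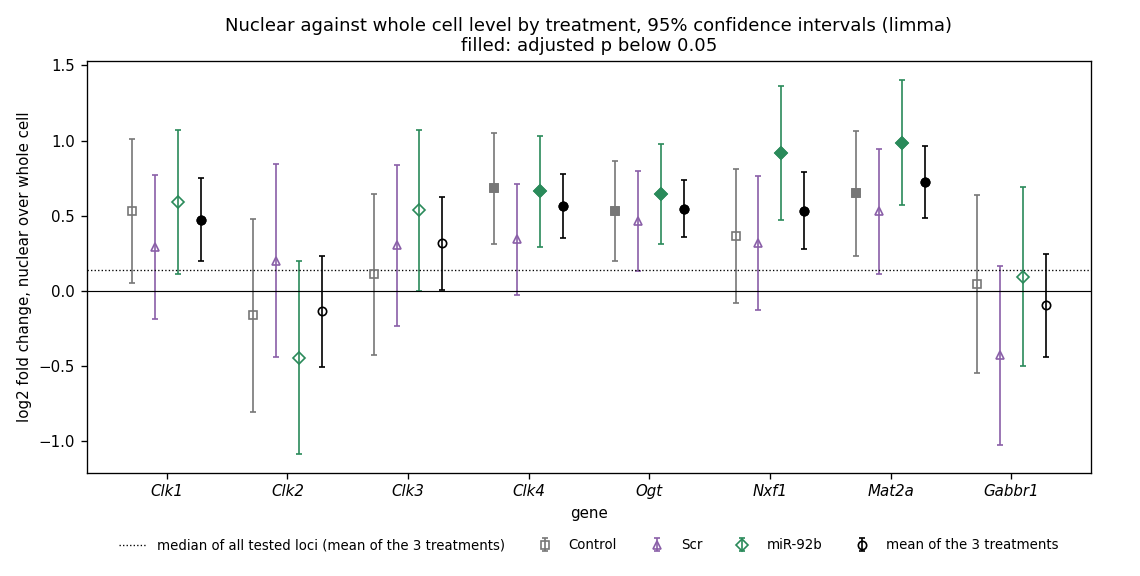
Log2 fold change of the nuclear over the whole cell level (y axis) of each gene (x axis) in control, Scr and *miR-92b* samples and as the mean of the 3 treatments, with 95% confidence intervals from limma. Filled symbols have an adjusted p below the threshold of 0.05, and the dotted line is the median of all tested loci, 0.14. The mean is filled for Clk1, Clk4, Ogt, Nxf1 and Mat2a, and lies below it for Clk2 and Gabbr1.

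Taken by treatment, 3 of the 8 genes passed in control (*Clk4*, *Ogt* and *Mat2a*), against 2.94% of all loci called higher. With Scr none passed, against 1.46%, although *Ogt* and *Mat2a* had an unadjusted p below 0.05, edgeR called none and DESeq2 called both. Both also passed without whole cell *miR-92b* sample 3, which is not in that comparison but enters the spread of the model. With *miR-92b* 4 passed (*Clk4*, *Ogt*, *Nxf1* and *Mat2a*), against 6.66%. These counts over all loci moved with whole cell *miR-92b* sample 3: without it 444 loci in place of 1038 were higher with *miR-92b*, 1021 in place of 458 in control and 761 in place of 228 with Scr. The median log2 fold change of the 8 genes was 0.45 in control, 0.31 with Scr and 0.62 with *miR-92b*, where the median over all loci was 0.06, 0.01 and 0.26, the last of which was 0.12 without that sample. All 3 nuclear samples lay above all 3 whole cell samples for 5 of the 8 genes in control (18.8% of all loci), for 2 with Scr (10.7%) and for 6 with *miR-92b* (19.7%). Leaving out any 1 of the 6 control samples lost 2 or 3 of the 3 calls in control. Leaving out nuclear Scr samples 2 and 3 together with whole cell *miR-92b* sample 3 kept the 5 calls of the mean and added *Clk3* (0.37, adjusted p = 0.0437). The same left *Mat2a* called with Scr (0.87, adjusted p = 0.0133), where 1 nuclear Scr sample remained and is assumed to vary like the other groups.

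The size of the nuclear difference was then compared between treatments. The F-test of the interaction called none of the 8 genes and none of the 15579 loci (0%), with adjusted p-values of the 8 genes from 0.962 to 0.984. At an unadjusted p below 0.05 there were 695 loci and no member, and edgeR called 1 locus and DESeq2 8, none of them a member. Set against Scr, the nuclear difference with *miR-92b* departed most in *Clk2*, -0.65 (95% confidence interval -1.55 to 0.26). It was -0.37 without whole cell *miR-92b* sample 2 and -0.92 without sample 3. For *Nxf1* the value was 0.60 (-0.04 to 1.23), and 0.34 without whole cell *miR-92b* sample 3.

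The pulldown comparison, *miR-92b* against Scr, called no member in either compartment. In nuclear samples the log2 fold changes of the 8 genes were from 0.003 to 0.42, with adjusted p-values of 0.99996 or higher, and no locus of 15579 (0%) was called, although 687 had an unadjusted p below 0.05. In whole cell samples they were from -0.41 to 0.69, with adjusted p-values of 0.488 or higher, and 1 locus (0.00642%), not a member, was called, with 1515 at an unadjusted p below 0.05. *Clk2* gave the highest whole cell value, 0.69 (SE 0.31, 95% confidence interval 0.05 to 1.33, adjusted p = 0.488), and was the member with an unadjusted p below 0.05. It was 0.41 without whole cell *miR-92b* sample 2, which had the highest *Clk2* count (adjusted p = 0.604). *Clk3* and *Clk4*, the genes with a seed match, had a nuclear log2 fold change of 0.42 and 0.08 and a whole cell one of 0.19 and -0.24. Against control, which shares its samples between the comparisons, no member was called with Scr or *miR-92b* in nuclear samples (0% of all loci in both) or in whole cell samples (0% with Scr and 0.00642% with *miR-92b*). At an unadjusted p below 0.05 there were 916 loci with Scr and 50 with *miR-92b* for the nucleus, and 793 and 731 for whole cells. In the last of these 1 member, *Nxf1*, had an unadjusted p below 0.05 (log2 fold change -0.52, -0.79 without whole cell *miR-92b* sample 1 and -0.27 without sample 3). edgeR and DESeq2 called no member in any of these 6 comparisons. Leaving out 1 sample changed these counts most without nuclear Scr sample 1, with 44 loci higher and 5 lower in nuclear *miR-92b* against Scr and 11 higher and 58 lower in nuclear Scr against control, and without whole cell *miR-92b* sample 1, with 7 higher and 70 lower in whole cell *miR-92b* against Scr. Without whole cell Scr sample 2 there were 13 higher in that comparison and 12 lower in whole cell Scr against control. No member was among the calls. Over all loci edgeR called at most 1, and DESeq2 called 1 in nuclear *miR-92b* against Scr, 96 higher and 80 lower in the whole cell one, none in nuclear samples against control and, in whole cell samples against control, 3 higher and 34 lower with Scr and 4 higher and 17 lower with *miR-92b*.

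Levels of different genes can be compared only per length, in FPKM. In whole cell control samples *Mat2a* was highest at 126 ± 1.88 FPKM (SD, n = 3), followed by *Clk4* at 50.3 ± 11.5, *Nxf1* at 41.6 ± 2.76, *Clk1* at 39.6 ± 9.59 and *Ogt* at 39.6 ± 1.65, of which neighbours overlapped between samples from *Clk4* on. *Clk3* at 21.3 ± 2.54, *Gabbr1* at 17 ± 3.52 and *Clk2* at 14.4 ± 1.62 formed a lower group whose neighbours overlapped too, below all samples of *Ogt*. In nuclear control samples the order began with *Mat2a* at 181 ± 11.4, *Clk4* at 90.8 ± 20.5 and *Clk1* at 56.2 ± 12.4, the first 2 separate from the next gene in all samples. *Mat2a* was first and *Clk4* second by mean in all 6 groups, although their samples overlapped in whole cell Scr. FPKM of *Gabbr1* varied most, from 7.48 to 64.2 over the 9 nuclear samples. On the FPKM scale 3 of the 8 genes (*Ogt*, *Nxf1* and *Mat2a*) were called higher in nuclear samples, where 1389 loci were higher and 2515 lower, against 2377 higher and 2454 lower on normalized counts, and the median over all loci was 0.02 in place of 0.14.

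The ratio of the normalized count to FPKM gives the transcript length that the authors' processing assigned to a gene in each sample, an implied length. It is the length of the transcript models to which reads were assigned, not of the RNA itself. A transcript that keeps an intron is longer, but a model that holds only a part of such a transcript can be shorter. The ratio therefore has no fixed direction for a detained intron and cannot show whether introns were detained. It was compared between compartments as a description. None of the 8 genes was called, while 22.2% of 8999 loci with at least 10 reads in every sample were, 900 as longer and 1102 as shorter in nuclear samples. The log2 difference was 0.19 (SE 0.11) for *Clk1*, 0.24 (0.16) for *Clk3*, -0.14 (0.10) for *Clk2*, -0.09 (0.09) for *Ogt*, -0.50 (0.34) for *Gabbr1*, -0.01 (0.18) for *Clk4*, 0.005 (0.15) for *Nxf1* and -0.005 (0.05) for *Mat2a*. Two-sided exact permutation tests within treatments gave p from 0.13 (*Clk1*) to 0.974 (*Nxf1*), where 0.00025 is the smallest they can give. Relative to the whole cell median, the implied length of *Mat2a* ranged from 0.888 to 1.14 over the 18 samples. That of *Gabbr1* ranged 6.15-fold, from 0.192 to 1.18. Without centring each sample on its median, *Clk1* (0.33, adjusted p = 0.0327) and *Mat2a* (0.14, adjusted p = 0.0486) were longer in nuclear samples, where the median over all loci was 0.11.

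**Figure D3:**
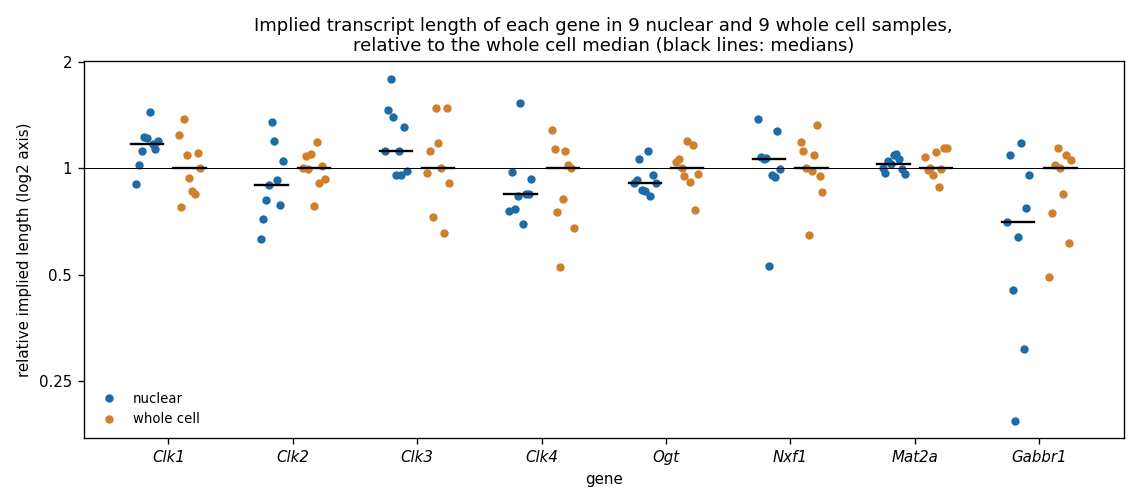
Implied transcript length (normalized count over FPKM, y axis, log2 scale) of each gene (x axis) in the 9 nuclear (blue) and 9 whole cell (orange) samples, relative to the median of the whole cell samples. Black lines are medians. The 2 compartments overlap for all 8 genes, and Gabbr1 spreads most, over a 6.15-fold range.

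The genes that work with the members were described by lists, in the nuclear against whole cell comparison averaged over treatments. In that comparison 15.3% of all 15579 tested loci were higher in nuclear samples, and slightly more were lower than higher. Among loci with a mean of 200 or more normalized counts, 25.4% were higher. Of the SR protein genes, whose products the CLK kinases phosphorylate, 9 of 12 tested loci were higher in nuclear samples and none lower, with a median log2 fold change of 0.54. *Srsf7* differed by 0.87 (SE 0.12, adjusted p = 6.85e-06) and *Srsf4*, joined with *A930004J17Rik*, by 0.79 (SE 0.14, adjusted p = 1.81e-04). *Srsf9*, the lowest, was at -0.36 (SE 0.15, adjusted p = 0.0797). In FPKM, 3 of these 12 were higher and 1 was lower, and *Srsf4* was not called. Of 8 tested genes of kinases related to the CLKs, *Prpf4b* (0.62, SE 0.12, adjusted p = 5.00e-04) and *Srpk3* (1.66, SE 0.61, adjusted p = 0.0399) were higher, and *Srpk3* was at a mean of 47.8 normalized counts in nuclear and 20.9 in whole cell samples and was not called by edgeR or without whole cell *miR-92b* sample 3. None of the 8 was lower on normalized counts and 1 was in FPKM.

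Of 21 tested mRNA export genes, which act with *Nxf1*, 4 were higher and 4 lower, with a median of -0.02. Both counts were near the shares over all tested loci. *Eny2*, joined with *Gm22392*, differed by 0.68 (SE 0.16, adjusted p = 0.00275) and *Thoc2*, of the THO complex, by 0.65 (SE 0.16, adjusted p = 0.00306), whereas *Nxf7* (-1.15, SE 0.34, adjusted p = 0.0121) and *Thoc5*, also of the THO complex (-1.03, SE 0.26, adjusted p = 0.0044), were lower. In FPKM 2 were higher and 6 lower, and *Eny2* and *Thoc5* were not called. Of 9 tested loci of O-GlcNAc cycling, the pathway of *Ogt*, 1 was higher, 1 of 5 loci that carry the symbol *Gfpt2*, with reads in 11 samples (log2 difference 2.71, adjusted p = 0.0227). It was not called without whole cell *miR-92b* sample 3. *Uap1* (-1.72, SE 0.60, adjusted p = 0.0317) and *Gfpt1* (-0.50, SE 0.12, adjusted p = 0.00291), both of the pathway to UDP-GlcNAc, were lower, *Uap1* not in FPKM or without the 3 samples that stood apart. The median of the list was 0.00, and that of the 12 tested loci of S-adenosylmethionine metabolism, the pathway of *Mat2a*, was -0.34. *Ahcy*, which breaks down S-adenosylhomocysteine, differed by -2.12 (SE 0.29, adjusted p = 4.93e-06) and *Mtap*, of the methionine salvage pathway, by -1.35 (SE 0.32, adjusted p = 0.00245), both among 5 lower loci. Of the GABA-B receptor list 3 of 10 loci were tested. A locus with the symbol *Kcnj6*, a potassium channel opened by the receptor, was higher (0.51, SE 0.14, adjusted p = 0.00866), though not in FPKM or with quantile normalization. Another locus with this symbol had a mean of 2.29 normalized counts and reads in 4 samples, and was not tested. Which of them lies on the strand of the gene was not checked. *Gabbr2*, the partner subunit of *Gabbr1*, had reads in 1 of 18 samples.

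**Figure D4:**
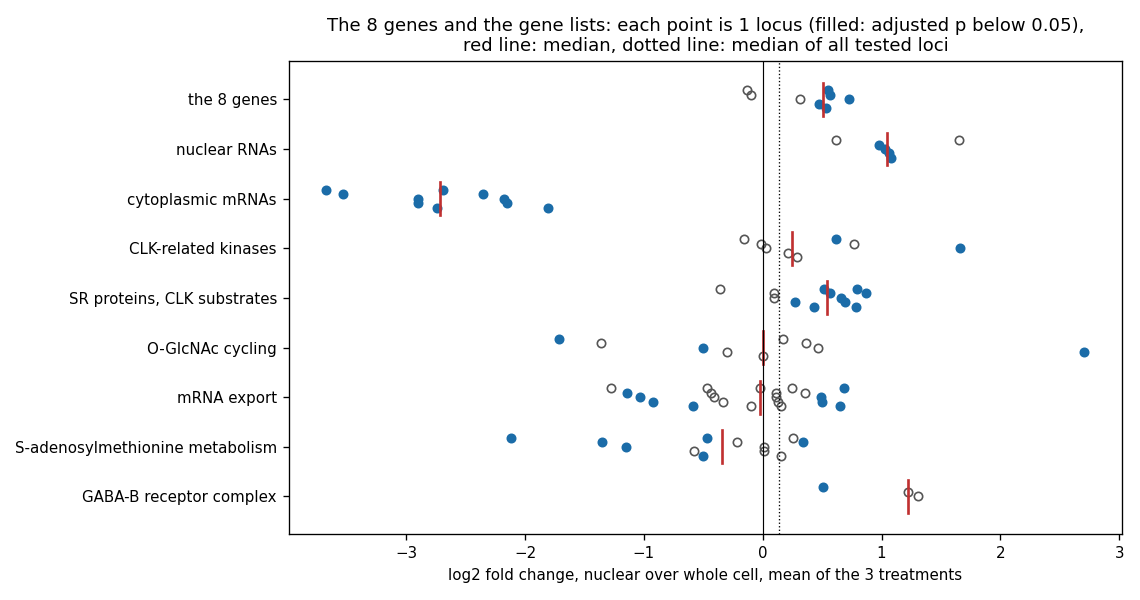
Log2 fold change of the nuclear over the whole cell level, mean of the 3 treatments (x axis), for the 8 genes and for each tested locus of 8 gene lists (y axis). Filled points have an adjusted p below 0.05, red lines are the medians of each list and the dotted line is the median of all tested loci. The 8 genes (median 0.50) and the SR protein genes (median 0.54) have medians between those of the nuclear RNAs (median 1.04) and the cytoplasmic mRNAs (median -2.72). So do all tested loci (median 0.14) and the other lists, except the GABA-B receptor complex (median 1.22). That median is of 3 loci, 2 of them not called and with low counts, and it was 0.57 with edgeR.

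The loci whose log2 levels followed a member most closely over the 18 samples were found by Pearson's r among 14375 tested loci of 1 symbol. For *Clk1* these were *Zfc3h1* (r = 0.95), *Taf15* (0.93) and *Pask* (0.93). The closest locus was *Orc4* for *Clk4* (0.96), *Zfp292* for *Ogt* (0.97), *Hjurp* for *Mat2a* (0.96) and *Ddx42* for *Nxf1* (0.94). For *Clk3*, *Gabbr1* and *Clk2* it was *Gm43164* (0.90), *Grid2ip* (0.91) and *Kmt2b* (0.76). These values describe 18 samples of 2 compartments that share library, depth and fraction, and the highest of many values is high by selection.

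Retained intron transcripts in the annotation were also set beside the nuclear difference. Of tested loci of 1 coding gene, 10.3% of the 4429 without such a transcript, 12.8% of the 6161 with at least 1 and 15.7% of the 2304 with at least 3 were called higher in nuclear samples. The median log2 fold change was -0.06, -0.06 and 0.02. These sets were not matched for level, on which the share depends: 25.4% of loci with a mean of 200 or more were called higher, against 15.3% of all. A link between retained introns and nuclear level was not tested. The 3 members without a call, *Clk2*, *Clk3* and *Gabbr1*, have 4 such transcripts each. Of the 5 called members, *Clk1* and *Clk4* have 7 and *Ogt*, *Nxf1* and *Mat2a* have 3.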

How the data were processed

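RNA of 18 Neuro2A samples was sequenced after oligo-dT selection with a directional kit. Per the labels and methods, the authors trimmed reads with Trimmomatic 0.30, aligned them to GRCm38 (mm10) with TopHat2 and quantified loci with Cufflinks, after base calling with bcl2fastq 2.17. The sources used here do not state whether counting used strand. The deposited count table holds normalized counts (a signal, counts divided by a size factor per sample), and the deposited FPKM table is scaled by transcript length as well. The authors' own comparison tables, with fold changes and p-values, were not used.

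From the normalized counts, whole reads were recovered: all 635205 values above 0 (100%) came out as whole reads within 0.02 of a read. Loci without a symbol (115957 loci, 4.51% to 15.3% of reads) were left out, as were loci with a mean under 10. The other 15579 were tested with limma 3.58.1 (R 4.3.3, trend) on log2(normalized count + 1), two-sided, with Benjamini-Hochberg adjustment. Count tests on the recovered reads (edgeR 4.0.16 quasi-likelihood with TMM, and DESeq2 1.42.0) were alternatives, as were FPKM (pseudocount 0.1), other pseudocounts, filters and scalings, sample weights, leaving out each sample and, added after the data were seen, leaving out 3 samples together. DESeq2 gave no adjusted p for some loci, which stayed without one. In simulated data on 15579 loci, 145 of 200 loci changed by 2 on the log2 scale were called in the nuclear against whole cell comparison (72.5%), with 10 false calls.

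The members, gene lists and tests were chosen with earlier results of these data known. Named were all 8 members, and per list up to 2 loci called in each direction, by size of change, and by Pearson's r the 3 loci most like *Clk1* and the 1 most like each other member. *Srsf9*, *Gabbr2* and the marker genes were named after their values were seen. Intervals cover the spread between samples, and depth was 3752991 to 22920038 reads. Some loci of these lists are not reported here.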

Additional observations from a re-analysis of the deposited data

How the results depend on the processing

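Averaged over treatments, the 5 calls (*Clk1*, *Clk4*, *Ogt*, *Nxf1* and *Mat2a*) were kept in 18 of 18 fits that left out 1 sample and in all other alternatives but FPKM, with 3 calls, and a required absolute log2 fold change above 1, with 0. In control, 3 genes were called, against 0 with the fold change above 1, 0 in FPKM, 1 with quantile normalization, 5 with sample weights and 0 to 4 when 1 sample was left out. With Scr, 0 were called, against 2 by DESeq2, 1 without the 3 samples that stood apart and 0 to 2 when 1 sample was left out. With *miR-92b*, 4 were called, against 0 with the fold change above 1, 1 in FPKM and 0 with the compared groups alone. For implied length, 0 were called, and 2 without centring. These are counts of the 8 genes alone. The share of all loci called under the same settings is mostly not given here, so they cannot be read against it. In FPKM the sign turned for the mean difference of *Clk3* (-0.062) and *Gabbr1* (0.26), in control for *Clk2* (0.20), *Clk3* (-0.67) and *Gabbr1* (-0.070), and with Scr for *Clk1* (-0.21), *Clk2* (-0.037), *Clk4* (-0.020) and *Gabbr1* (0.41). With quantile normalization it turned for the mean of *Clk2* (0.0030) and *Gabbr1* (0.022) and for *Clk2* in control (0.0048). *Gabbr1* in control ranged from -0.12 to 0.24 when 1 sample was left out, and with *miR-92b* from -0.30 to 0.37, with -0.11 under sample weights and -0.30 without the 3 samples. The cause was not tested. With the replicate number as a block, the replicate block fit called 5 genes on the mean, 3 in control, 0 with Scr and 4 with *miR-92b*, so that no count moved. Over all tested loci, deviations of 45 same-numbered pairs correlated at -0.04 to 0.11 (1 of 45 over 0.1). No pairing by number was seen in these values, but they cannot exclude one, because counting noise at loci with few reads lowers such correlations. *Clk2* had the lowest counts of the 8 genes, 164 to 461 normalized counts per sample.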
